A study of Mus musculus with 7 samples.

Results

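Matrix metalloproteinases and their inhibitors were examined in mouse skin papillomas by following 10 genes, *Mmp2*, *Mmp3*, *Mmp9*, *Mmp10*, *Mmp11*, *Mmp12*, *Mmp13*, *Mmp14*, *Timp1* and *Timp3*. They were picked by symbol, as 10 of the 23284 gene symbols listed for every papilloma, and no measured value entered that rule. The list itself was drawn up with earlier results of these data known. The papillomas came from 4 CTR and 3 TG mice in a C57Bl/6 background, a separate mouse and RNA-seq library each. Both groups carried the *tetO-Nanog* allele, drank doxycycline (DOX, 2 mg/ml) throughout, and were entered at 8 to 10 weeks of age into the DMBA/TPA protocol, in which the mutagen DMBA starts skin tumors and the phorbol ester TPA, given here for 15 weeks, promotes them. TG mice also carried *K5-rtTA*, a transactivator driven by the keratin 5 promoter and thus active in basal keratinocytes, so that DOX switched on *Nanog* there, while CTR mice lacked it. TPA stopped after 15 weeks, and the protocol then ran for another 15 weeks of observation. Papillomas were taken when the protocol ended or earlier, when a mouse reached its humane endpoint, and the labels do not say which applied to each mouse. *Nanog* checked the labels, with 36.9, 57.4 and 66.9 FPKM in TG 1 to TG 3 and between 2.70 and 12.7 FPKM in CTR papillomas. FPKM, the unit of every level given here, is the number of fragments of a gene scaled to the length of its transcript and to the mapped fragments of the library.

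Matrix metalloproteinases are zinc-dependent enzymes that are made as inactive proenzymes and cut collagens, proteoglycans and many other proteins outside the cell. Tissue inhibitors of metalloproteinases (TIMPs) block them by occupying the active site. In skin tumors both basal keratinocytes and the surrounding fibroblasts, macrophages and neutrophils make these proteins, and TPA is a classical inducer of several of the genes through AP-1, the Fos and Jun dimer that binds the TPA response element. Only mRNA was measured here, and not proenzyme activation.

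The promoters of the 4 members that lie together on chromosome 9, *Mmp13*, *Mmp12*, *Mmp3* and *Mmp10*, are shown because each held a match to the AP-1 element close to the start of transcription. The lines give the 250 bases before the start on the plus strand, from RefSeq on GRCm38.p6, with the AP-1 match in capitals. They cover chr9:7272264-7272513 for *Mmp13*, chr9:7347124-7347373 for *Mmp12*, chr9:7445572-7445821 for *Mmp3* and chr9:7502092-7502341 for *Mmp10*.
Mmp13: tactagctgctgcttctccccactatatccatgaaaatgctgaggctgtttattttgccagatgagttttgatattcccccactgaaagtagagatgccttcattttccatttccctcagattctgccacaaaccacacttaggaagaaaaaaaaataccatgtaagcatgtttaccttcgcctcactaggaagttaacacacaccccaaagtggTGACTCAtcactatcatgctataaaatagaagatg
Mmp12: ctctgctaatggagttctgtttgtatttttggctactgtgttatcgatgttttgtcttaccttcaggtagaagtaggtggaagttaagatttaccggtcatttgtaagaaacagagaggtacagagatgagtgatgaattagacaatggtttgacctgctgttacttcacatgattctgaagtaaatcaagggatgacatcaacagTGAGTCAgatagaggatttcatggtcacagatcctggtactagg
Mmp3: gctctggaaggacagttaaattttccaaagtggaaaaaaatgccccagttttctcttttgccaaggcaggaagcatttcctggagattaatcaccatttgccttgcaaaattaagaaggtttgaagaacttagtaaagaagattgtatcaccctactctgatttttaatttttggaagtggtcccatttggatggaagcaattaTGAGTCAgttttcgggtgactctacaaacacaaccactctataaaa
Mmp10: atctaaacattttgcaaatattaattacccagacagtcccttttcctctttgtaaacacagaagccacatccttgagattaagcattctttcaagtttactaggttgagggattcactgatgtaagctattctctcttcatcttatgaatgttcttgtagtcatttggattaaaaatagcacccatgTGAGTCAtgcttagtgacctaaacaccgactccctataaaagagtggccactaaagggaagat

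The motif searched was TGANTCA on both strands. It lay 35 to 29 bases before the start in *Mmp13*, 44 to 38 in *Mmp12*, 46 to 40 in *Mmp3* and 63 to 57 in *Mmp10*. *Mmp13* had the letters TGACTCA and the other 3 had TGAGTCA. Among the 8 members with a RefSeq promoter entry, these 4 held the motif, and *Mmp11*, *Mmp14*, *Timp1* and *Timp3* did not within this window. *Mmp2* and *Mmp9* had no such entry and were not searched. Of 32851 windows of the same length over all genes, 6.75% held it. The Ets motif AGGAAG, which overlaps no AP-1 match here, was in 5 of the 8 members and in 29.48% of all windows. TATAAA was in 3 of the 8, *Mmp3*, *Mmp10* and *Mmp13*, and in 7.59% of all windows. These matches describe the letters only, and binding was not measured.

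No member passed a test for a difference between TG and CTR papillomas. With limma on log2(FPKM + 0.5), 0 of the 10 members passed at a Benjamini-Hochberg adjusted p under 0.05 in either direction, as did 0.0% of the 12299 genes tested in each direction. At an unadjusted p under 0.05, 0 members passed, against 4.86% of all genes higher and 1.96% lower in TG papillomas. A 2-sided exact permutation test over all 35 splits of the 7 papillomas called 0 members, at a smallest possible p of 0.029. TG and CTR values overlapped for all 10 members, while every TG papilloma lay above every CTR papilloma for 4.93% of all genes and below for 2.23%. The fitted difference was above 0 for 7 of the 10 members, against 60.0% of all genes. The median difference was 0.45 on the log2 scale over the members and 0.06 over all genes tested. All 10 members passed the filter on low values, which asked for an average of 0.5 FPKM or more across all libraries. The highest values lay mostly in a pair of papillomas. CTR 4 held the highest value of *Mmp3*, *Mmp9*, *Mmp10* and *Mmp13* (4 of 10 members, against 4.88% of all genes), and TG 3 that of *Mmp2*, *Mmp11*, *Mmp14*, *Timp1* and *Timp3* (5 of 10, against 41.1%).

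**Figure D1:**
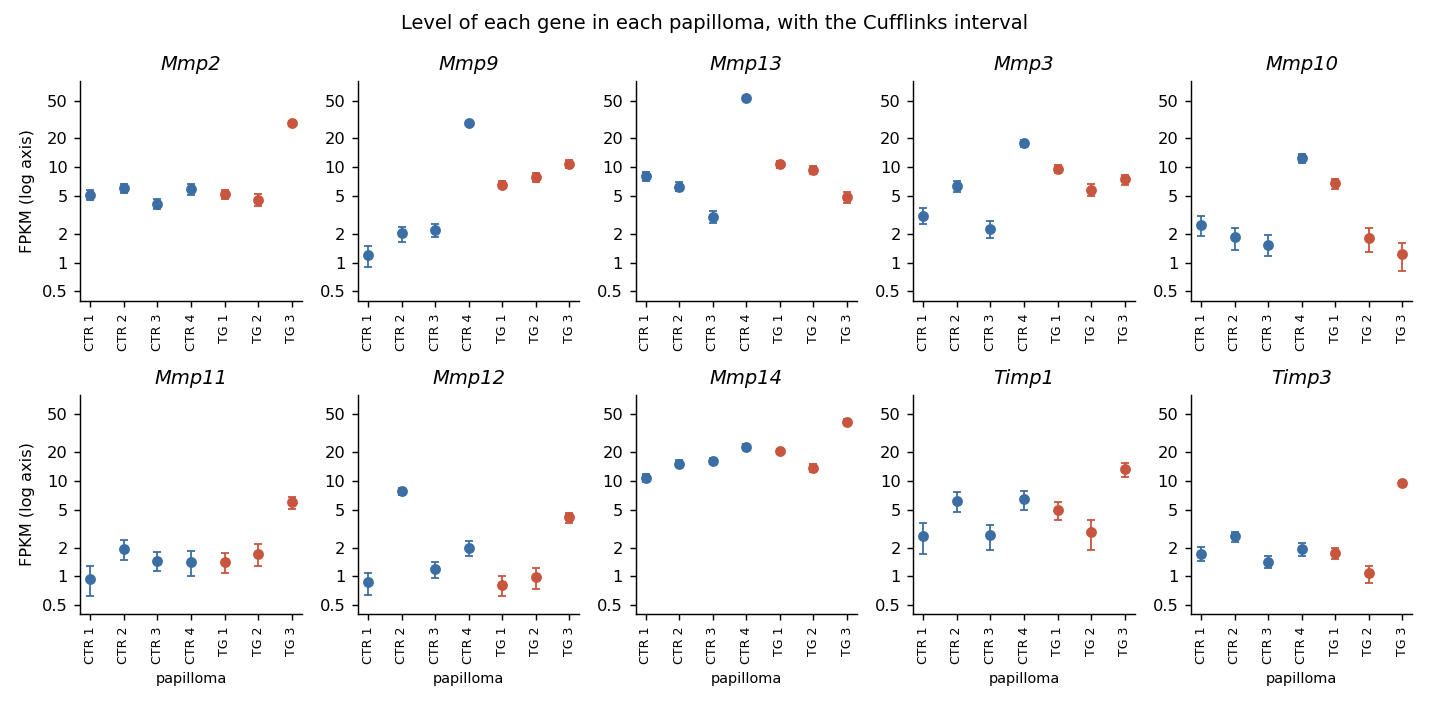
Level of each member in each papilloma, in FPKM on a log axis, with CTR in blue and TG in red. Points are single papillomas and bars the Cufflinks interval, the counting error of 1 library. CTR 4 stands above the other CTR papillomas for *Mmp9*, *Mmp13*, *Mmp3* and *Mmp10*, and TG 3 has the highest point for *Mmp2*, *Mmp11*, *Mmp14*, *Timp1* and *Timp3*.

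The gelatinases cut denatured collagen and the type IV collagen of basement membranes. *Mmp9* (chromosome 2, 164948251 to 164955846, plus strand, GRCm38), made by keratinocytes at tumor edges and by neutrophils and macrophages, was at 1.19, 2.02, 2.18 and 29.2 FPKM in CTR 1 to CTR 4, and at 6.58, 7.82 and 10.9 FPKM in TG 1 to TG 3. CTR 4 was thus the highest of all 7 papillomas, at 16.2 times the mean of the other CTR papillomas, and the TG papillomas all lay above CTR 1 to CTR 3. The group means were 8.64 ± 13.7 FPKM in CTR (SD, n = 4) and 8.43 ± 2.22 FPKM in TG papillomas (SD, n = 3). The log2 difference was 1.03 (standard error 0.86, limma adjusted p = 0.868, exact permutation p = 0.429). Without CTR 4 it was 1.96 (standard error 0.27, limma adjusted p = 0.416), and without both CTR 4 and TG 3 it was 1.77 (limma adjusted p = 0.0807), so the threshold was missed in each case. It was smaller without CTR 1 (0.58), CTR 2 (0.77) or CTR 3 (0.80) and with papillomas weighted by quality (0.29). Such a position above CTR 1 to CTR 3 was held by 8.11% of all genes. The replicate number as a block, which leaves CTR 4 without a partner, gave the same 1.96 with a limma adjusted p of 0.228.

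*Mmp2* (chromosome 8, 92827328 to 92853420, plus strand) is the gelatinase of stromal cells, chiefly fibroblasts. It was at 5.17, 6.04, 4.16 and 5.88 FPKM in CTR 1 to CTR 4, at 5.20 and 4.58 FPKM in TG 1 and TG 2, and at 29.0 FPKM in TG 3. Without TG 3 the 2 TG papillomas lay inside the CTR range. The log2 difference was 0.72 (standard error 0.54, limma adjusted p = 0.852, exact permutation p = 0.429) over all papillomas and -0.10 without TG 3. In bulk tissue a change in the number of cells that make a gene and a change in RNA per cell cannot be told apart, here and for every member.

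*Mmp13* (chromosome 9, 7272514 to 7283333, plus strand) is the main secreted collagenase of the mouse and cuts native fibrillar collagen. It was at 8.01, 6.27, 3.01 and 53.1 FPKM in CTR 1 to CTR 4 and at 10.7, 9.31 and 4.86 FPKM in TG 1 to TG 3. The value in CTR 4, the highest of any member in any papilloma, was 9.22 times the mean of the other CTR papillomas, and the remaining values of both groups overlapped. TG minus CTR came to -0.29 on the log2 scale (standard error 0.79, limma adjusted p = 0.979, exact permutation p = 0.886), and 0.51 without CTR 4.

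The stromelysins cut proteoglycans, laminin and fibronectin and can activate other proenzymes. *Mmp3* (chromosome 9, 7445822 to 7455974, plus strand) was at 3.11, 6.29, 2.26 and 17.8 FPKM in CTR 1 to CTR 4 and at 9.68, 5.81 and 7.44 FPKM in TG 1 to TG 3. CTR 4 was 4.59 times the mean of the other CTR papillomas, and the TG values lay between CTR 3 and CTR 4. On the log2 scale the groups differed by 0.43 (standard error 0.57, limma adjusted p = 0.937, exact permutation p = 0.629). This value was 0.97 without CTR 4, 0.19 without CTR 1, 0.25 without TG 1 and 0.060 without CTR 3. *Mmp10* (chromosome 9, 7502360 to 7510240, plus strand), known from keratinocytes at wound margins, was at 2.49, 1.84, 1.55 and 12.5 FPKM in CTR 1 to CTR 4 and at 6.76, 1.80 and 1.22 FPKM in TG 1 to TG 3. CTR 4 and TG 1 stood above the other 5 papillomas, which ranged from 1.22 to 2.49 FPKM. The log2 difference was -0.27 (standard error 0.69, limma adjusted p = 0.976, exact permutation p = 0.686), and 0.33 without CTR 4.

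In all, CTR 4 exceeded 3 times the mean of the other CTR papillomas for 4 of the 10 members, the 3 above and *Mmp9*, while 0.659% of all genes did so. Of these, *Mmp3*, *Mmp10* and *Mmp13* are among the 4 with the AP-1 motif printed above. *Mmp12*, the fourth with the motif, did not follow them. *Mmp9* had no promoter entry, so the motif was not searched there.

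*Mmp12* (chromosome 9, 7347374 to 7360461, plus strand), the elastase of macrophages, was at 0.865, 7.78, 1.19 and 1.97 FPKM in CTR 1 to CTR 4 and at 0.815, 0.971 and 4.13 FPKM in TG 1 to TG 3. It was the only member highest in CTR 2, as were 6.46% of all genes, and TG 3 came next. TG minus CTR was -0.34 on the log2 scale (standard error 0.65, limma adjusted p = 0.965, exact permutation p = 0.629), and 0.22 without CTR 2.

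*Mmp11* (chromosome 10, 75923224 to 75932463, minus strand), a protease of tumor stroma that furin activates inside the cell, was the lowest of the members on average. It was at 0.942, 1.95, 1.46 and 1.42 FPKM in CTR 1 to CTR 4, at 1.42 and 1.72 FPKM in TG 1 and TG 2, and at 5.96 FPKM in TG 3. Only TG 3 lay outside the CTR range, and the log2 difference was 0.66 (standard error 0.41, limma adjusted p = 0.831, exact permutation p = 0.286). Without TG 3 it was 0.11.

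*Mmp14* (chromosome 14, 54431604 to 54441258, plus strand) encodes a membrane-anchored collagenase that activates pro-MMP2 at the cell surface. Its levels were 10.7, 15.2, 16.2 and 22.7 FPKM in CTR 1 to CTR 4 and 20.4, 13.6 and 41.8 FPKM in TG 1 to TG 3. It varied least of the members, with 3.89 times between its highest and lowest papilloma against 24.4 times for *Mmp9*, the most variable. The fitted log2 difference was 0.52 (standard error 0.37, limma adjusted p = 0.842, exact permutation p = 0.314), and 0.09 without TG 3.

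Among the inhibitors, *Timp1* (chromosome X, 20870166 to 20874737, plus strand), a secreted inhibitor induced in inflamed and wounded tissue, was at 2.66, 6.13, 2.69 and 6.37 FPKM in CTR 1 to CTR 4 and at 4.95, 2.91 and 13.1 FPKM in TG 1 to TG 3. *Timp3* (chromosome 10, 86300412 to 86349505, plus strand), which stays bound to the matrix and also inhibits ADAM17, was at 1.73, 2.62, 1.42 and 1.94 FPKM in CTR 1 to CTR 4 and at 1.75, 1.07 and 9.40 FPKM in TG 1 to TG 3. TG 3 stood above every CTR papilloma for both, while TG 1 and TG 2 lay within the CTR range for *Timp1*, and TG 1 within and TG 2 below it for *Timp3*. The Cufflinks interval of *Timp3* in TG 2 (0.854 to 1.28 FPKM) overlapped that of CTR 3 (1.22 to 1.63 FPKM), the lowest CTR papilloma. The log2 difference was 0.45 for *Timp1* (standard error 0.49, limma adjusted p = 0.919, exact permutation p = 0.571) and also 0.45 for *Timp3* (standard error 0.55, limma adjusted p = 0.928, exact permutation p = 0.714). Without TG 3 these became -0.10 and -0.35. TG 3 exceeded 3 times the CTR mean for 3 members, *Mmp2* at 5.46 times, *Timp3* at 4.88 times and *Mmp11* at 4.13 times, against 5.89% of all genes.

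**Figure D2:**
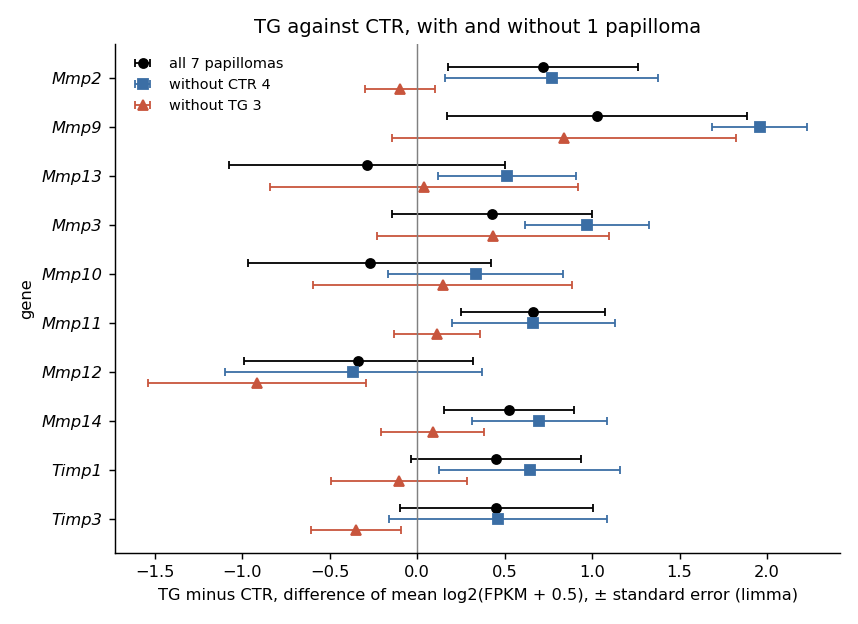
Difference between TG and CTR papillomas for each member in log2(FPKM + 0.5), with the limma standard error, over all papillomas (black), without CTR 4 (blue) and without TG 3 (red). *Mmp9* moves from 1.03 to 1.96 without CTR 4, and *Mmp2*, *Timp1* and *Timp3* move from above 0 to -0.10, -0.10 and -0.35 without TG 3.

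Depth, inferred from the Cufflinks intervals, was 10077008 to 10672850 reads on genes in the 5 libraries of lower depth and 15623173 and 15711400 reads in CTR 3 and TG 1, too few deeper libraries to compare with each other. Within the libraries of lower depth (3 CTR, 2 TG) the log2 differences were 0.98 for *Mmp2*, 0.95 for *Mmp9*, 1.00 for *Mmp11*, 0.61 for *Mmp14*, 0.38 for *Timp1* and 0.62 for *Timp3*. They were -1.01 for *Mmp13*, -1.18 for *Mmp10*, -0.22 for *Mmp12* and -0.11 for *Mmp3*, which alone changed sign. A member rested on between 31 implied reads (*Timp1* in CTR 1) and 2589 (*Mmp13* in CTR 4). The median FPKM over all symbols lay between 0.539 and 0.673 for all papillomas but TG 3, which had 1.14.

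Likeness between members was measured as the root mean square difference of log2(FPKM + 0.5), centered on each gene's mean, over the 7 papillomas. A value of 0 would be the same pattern with the same size of change, so the measure also counts how widely each gene varies. The closest pairs of members were *Mmp2* with *Timp3* (0.19), *Mmp14* with *Timp1* (0.33) and *Mmp2* with *Mmp11* (0.34), all highest in TG 3. Among the members highest in CTR 4 the closest pair was *Mmp13* with *Mmp10* (0.53). The members highest in the same papilloma were not always the nearest by this measure. *Mmp9* was nearest to *Mmp3* (0.77) but farther from *Mmp10* (1.13) than from *Mmp14* (1.07). *Mmp3* was nearer to *Timp1* (0.70) and *Mmp14* (0.74) than to *Mmp9*, and *Mmp12* was nearest to *Timp1* (0.69). The standard deviation on this scale was 1.45 for *Mmp9*, 0.91 for *Mmp3*, 0.78 for *Timp1* and 0.62 for *Mmp14*. These distances thus hold differences in size as well as in pattern. *Mmp13* and *Mmp10* were each other's nearest of all genes tested, and the next nearest to *Mmp13* was *Mmp3* (0.68). The nearest to *Mmp9* were *Ccl2* (0.65), a chemokine that attracts monocytes and was at 29.1 FPKM in CTR 4 and 3.19 to 11.6 FPKM elsewhere, and the small nucleolar RNA *Snord72* (0.68), which polyA+ libraries measure poorly. The nearest to *Mmp12* were *2610206C17Rik* (0.41) and *Lrmp* (0.42), both highest in CTR 2. These values are descriptions over 7 papillomas, without a test.

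**Figure D3:**
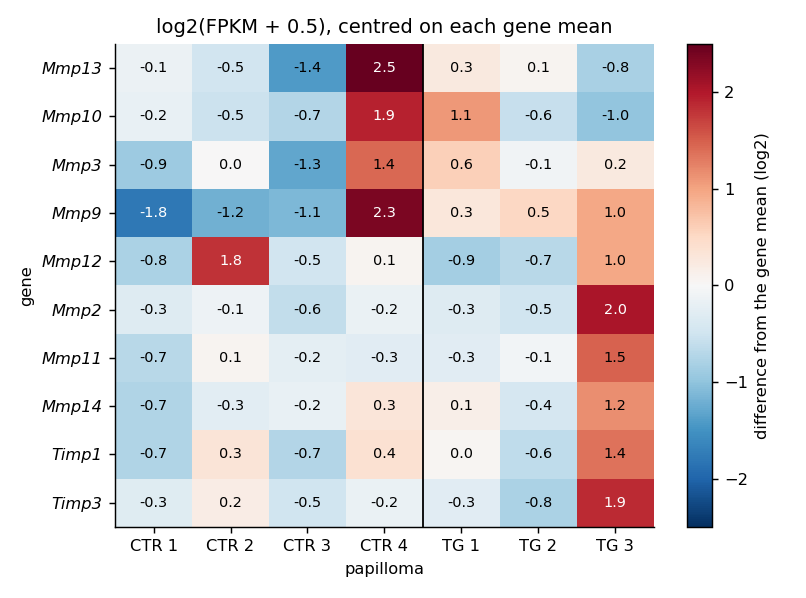
Level of each member in each papilloma as the difference of log2(FPKM + 0.5) from that gene's mean over the 7 papillomas. Rows are genes, columns papillomas, the line parts CTR from TG, and red is above the mean. *Mmp13*, *Mmp10*, *Mmp3* and *Mmp9* are highest in CTR 4, *Mmp12* in CTR 2, and the lower 5 rows in TG 3.

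Markers of other cell types were also high in TG 3. The 6 fibroblast markers (*Col1a1*, *Col1a2*, *Col3a1*, *Pdgfra*, *Dcn* and *Lum*) summed to 73.5 to 129 FPKM in CTR papillomas and to 88.9 and 86.3 FPKM in TG 1 and TG 2. They summed to 678 FPKM in TG 3, where all 6 were highest, against 41.1% of all genes. The 5 skeletal muscle markers, among them *Acta1* and *Tnnt3*, summed to 1.301 to 2.92 FPKM in CTR papillomas, 2.09 and 4.59 FPKM in TG 1 and TG 2, and 563 FPKM in TG 3. Skeletal muscle lies beneath the skin and is no part of the epidermis. The part of these cells in the levels of *Mmp2*, *Mmp11*, *Mmp14*, *Timp1* and *Timp3* was not tested. The 5 keratinocyte markers were abundant in every papilloma, at 8121 to 11374 FPKM summed in CTR, 17420 and 15196 FPKM in TG 1 and TG 2, and 6856 FPKM in TG 3. The members of that list differed, since TG 3 had 0.245 of the CTR mean of *Krt1*, 0.155 of *Krt10* and 0.679 of *Krt14*, while *Krt5* was highest in TG 3 at 1783 FPKM and *Trp63* was at 1.00 times the CTR mean.

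The macrophage markers, which bear on *Mmp12* and *Mmp9*, summed to 28.0 to 40.05 FPKM in CTR papillomas, with the highest CTR value in CTR 2, and to 25.9, 26.3 and 92.1 FPKM in TG 1 to TG 3. Of the 6, 5 were highest in TG 3, against 41.1% of all genes, and *Cd68*, the largest term of most sums, was at 15.4 to 20.6 FPKM throughout. *Lyz2* was at 18.7 FPKM in CTR 2 and 4.37 to 8.43 FPKM in the other CTR papillomas. CTR 4 had the highest CTR value of *Emr1* (0.968 FPKM), *Csf1r* (3.51 FPKM) and *Aif1* (2.74 FPKM, 2.59 times the mean of the other CTR papillomas). *Mrc1* went the other way, at 0.620 FPKM in CTR 4, or 0.742 times the mean of the other CTR papillomas. The neutrophil markers summed to 5.23 to 10.4 FPKM in CTR papillomas, lowest in CTR 4, and to 11.8, 9.64 and 41.0 FPKM in TG 1 to TG 3. Outside TG 3 most of each sum was *Cxcr2*. It was at 4.84 FPKM in both CTR 2 and CTR 4 and at 11.1 and 8.71 FPKM in TG 1 and TG 2. *Csf3r* and *Retnlg* lay within the CTR range in TG 1 and TG 2 and were highest in TG 3. *Mpo* and *Elane*, which mark young neutrophils, were at most 0.0339 and 0.0819 FPKM in any papilloma, and *Ly6g* was not found by symbol. The part of macrophages and neutrophils in the levels of *Mmp9* and *Mmp12* was not tested. The 4 endothelial markers summed to 4.63 to 8.55 FPKM in CTR and 7.26 to 20.02 FPKM in TG papillomas, and the 4 mast cell markers to 2.31 to 4.14 FPKM and 2.06 to 7.65 FPKM. The 3 adipocyte markers were listed at 0 in every CTR papilloma and summed to 0.0443, 0.0142 and 4.59 FPKM in TG 1 to TG 3.

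**Figure D4:**
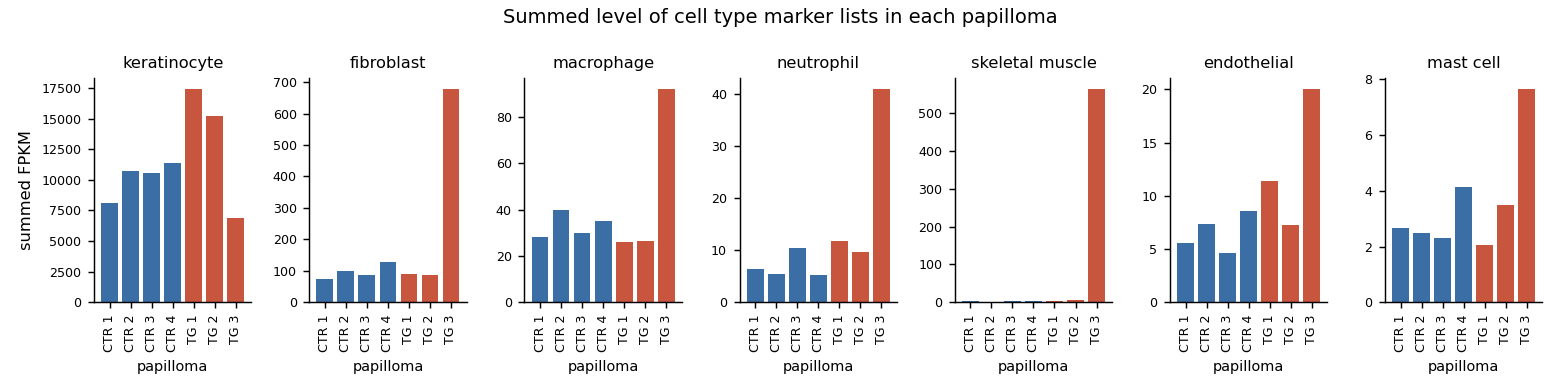
Summed FPKM of each cell type marker list except the adipocyte list in each papilloma, CTR in blue and TG in red, 1 bar a papilloma. TG 3 has the highest bar for fibroblasts (678), skeletal muscle (563), macrophages (92.1) and neutrophils (41.0). Its keratinocyte bar is the lowest (6856), with *Krt5* nonetheless highest in TG 3. CTR 4 is lowest for neutrophils (5.23), mostly *Cxcr2*, which was at 4.84 FPKM in both CTR 2 and CTR 4.

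The balance of proteinases to inhibitors differed among papillomas. The 8 *Mmp* members summed to 32.5, 47.4, 32.0 and 145 FPKM in CTR 1 to CTR 4 and to 61.5, 45.6 and 105 FPKM in TG 1 to TG 3. The 2 *Timp* members summed to between 4.11 and 8.75 FPKM in CTR papillomas and to 6.70, 3.97 and 22.5 FPKM in TG 1 to TG 3. The ratio of the sums was 7.42, 5.42, 7.78 and 17.4 in CTR 1 to CTR 4 and 9.19, 11.5 and 4.67 in TG 1 to TG 3, so CTR 4 had the highest and TG 3 the lowest. *Mmp14* made the largest share of the *Mmp* sum in 6 papillomas, between 29.9% and 50.6%. In CTR 4 it made 15.7%, and *Mmp13* came first with 36.8% and *Mmp9* next with 20.2%. With *Timp2* added to the inhibitors, a choice made after the data were seen, the ratio was 6.91 in CTR 4 and 1.81 in TG 3, again the highest and the lowest, with the others between 1.99 and 3.04.

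The 4 chromosome 9 members sit in a cluster of 10 *Mmp* genes that spans 426.9 kb. Besides them it holds *Mmp1a*, *Mmp1b*, *Mmp7*, *Mmp8*, *Mmp20* and *Mmp27*, none of which reached a mean of 0.5 FPKM. *Mmp1b*, related to *Mmp1a* but separated from it by *Mmp3*, was at 0.197, 0.136, 0.239 and 0.951 FPKM in CTR 1 to CTR 4 and at 1.32, 0.344 and 0.176 FPKM in TG 1 to TG 3. Its values were highest in TG 1 and then CTR 4, the 2 papillomas that also had the most *Mmp10*. Reads that match both *Mmp1b* and *Mmp1a* may be shared between them, which was not measured. *Mmp8*, the neutrophil collagenase, reached 0.960 FPKM in TG 3, and no other papilloma exceeded 0.114 FPKM. *Mmp1a*, *Mmp7*, *Mmp20* and *Mmp27* stayed under 0.2 FPKM in every papilloma, and *Mmp7* was listed at 0 in all 7. The AP-1 motif was also in the window before *Mmp1a*, *Mmp1b*, *Mmp7* and *Mmp20*, 4 of the 14 other *Mmp* and *Timp* genes with a promoter entry. Of these, *Mmp7* had no reads and *Mmp20* reached 0.0193 FPKM at most. *Mmp1a*, like *Mmp1b*, was highest in TG 1 (0.198 FPKM) and then CTR 4 (0.184 FPKM). A link between the motif and these levels was not tested.

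**Figure D5:**
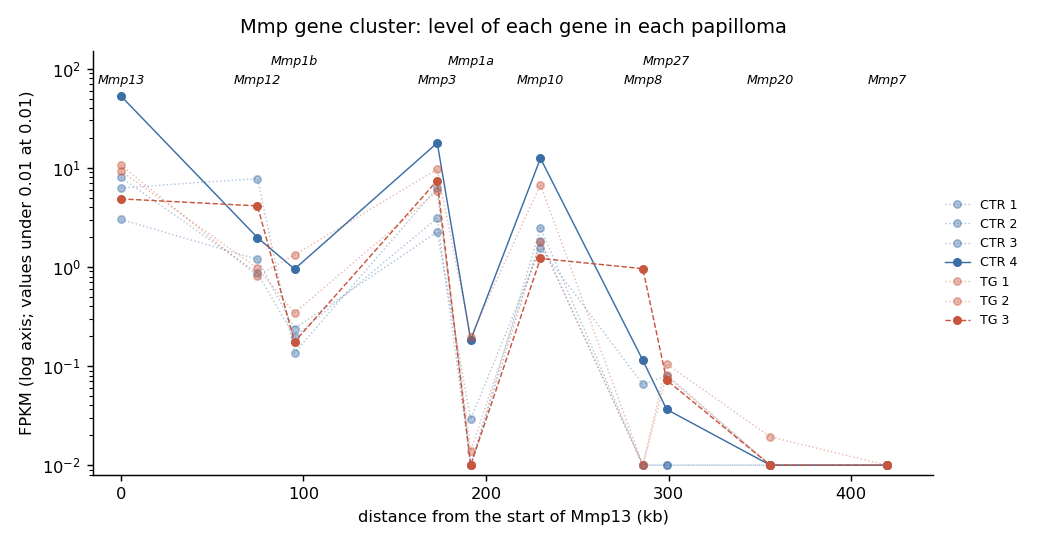
Level of the 10 genes of the chromosome 9 *Mmp* cluster in each papilloma, in FPKM on a log axis, against distance from the start of *Mmp13*. Values under 0.01 are drawn at 0.01, and lines join the genes of 1 papilloma. CTR 4 (solid line) is highest at *Mmp13*, *Mmp3* and *Mmp10*, while *Mmp7* and *Mmp20* lie at the bottom.

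Of the 15 other *Mmp* genes, 3 passed the filter on low values, and 0 of 3 passed at an adjusted p under 0.05. *Mmp28*, an epidermal member known as epilysin, was at 1.72, 1.40, 1.76 and 1.38 FPKM in CTR 1 to CTR 4 and at 2.40, 2.19 and 2.33 FPKM in TG 1 to TG 3. It was the only one of the 3 whose groups did not overlap (4.93% of all genes were higher in this way), with means of 1.56 ± 0.20 FPKM (SD, n = 4) and 2.31 ± 0.11 FPKM (SD, n = 3). The log2 difference was 0.45 (standard error 0.18, limma adjusted p = 0.705, exact permutation p = 0.0286, the smallest this design allows). *Mmp15*, a membrane-type enzyme, was at 0.968 to 1.497 FPKM in CTR and 1.42 to 2.46 FPKM in TG papillomas (log2 difference 0.56, limma adjusted p = 0.713). *Mmp23*, another membrane protein, was at 0.277 to 1.02 FPKM in CTR papillomas, 0.911 and 0.4999 FPKM in TG 1 and TG 2, and 3.82 FPKM in TG 3.

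*Timp2*, the inhibitor that also bridges MMP14 to pro-MMP2, had the most mRNA of the *Timp* genes. It was at 11.9, 6.86, 11.97 and 12.6 FPKM in CTR 1 to CTR 4 and at 19.4, 11.2 and 35.5 FPKM in TG 1 to TG 3, with the top value in TG 3 and TG 2 within the CTR range. Its log2 difference was 0.88 (standard error 0.37, limma adjusted p = 0.719). Of the 9 other inhibitors listed, 3 were tested and 0 passed. *Serpine2*, a serine protease inhibitor, was at 33.2 to 61.3 FPKM in CTR papillomas, 18.2 and 16.4 FPKM in TG 1 and TG 2, and 63.2 FPKM in TG 3 (log2 difference -0.79, limma adjusted p = 0.823). *Timp4* was listed at 0 in 6 papillomas and was at 0.1002 FPKM in TG 3, and *Reck*, a membrane-anchored inhibitor, reached 0.687 FPKM in TG 3, where no other papilloma exceeded 0.0717 FPKM.

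Proteins that activate or dock the proenzymes were looked at next. Of 16 such genes, 14 were tested and 0 passed at an adjusted p under 0.05. Their median log2 difference was 0.35, and the groups did not overlap for 2 genes, both higher in TG papillomas, as for 4.93% of all genes. TG 3 held the highest value of 10 of the 14, against 41.1% of all genes. *Plau*, the urokinase that makes the proMMP-activating protease plasmin, was at 11.9, 12.8, 7.27 and 18.6 FPKM in CTR 1 to CTR 4 and at 39.8, 32.9 and 34.2 FPKM in TG 1 to TG 3. All TG values lay above all CTR values, and the log2 difference was 1.52 (standard error 0.28, limma adjusted p = 0.498, exact permutation p = 0.0286). *Lcn2*, whose human counterpart binds and shields MMP9, was at 2.44, 10.4, 2.14 and 4.54 FPKM in CTR 1 to CTR 4. In TG 1 to TG 3 *Lcn2* was at 26.4, 14.8 and 25.8 FPKM. Its groups did not overlap either (log2 difference 2.28, standard error 0.47, limma adjusted p = 0.538, exact permutation p = 0.0571), and it passed only when limma weighted the papillomas by quality. *Pcsk6*, a furin-like convertase, was the only one of the 14 with a difference below 0, at 15.4 to 45.6 FPKM in CTR and 13.6 to 34.3 FPKM in TG papillomas (log2 difference -0.59, limma adjusted p = 0.842).

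The related ADAM and ADAMTS proteases had 11 of 21 genes tested, and 0 passed. Their median log2 difference was 0.51, and 9 of the 11 were highest in TG 3, against 41.1% of all genes. *Adamts5*, an aggrecan-cutting protease, was at 0.152 to 0.330 FPKM in CTR and 0.3998, 1.06 and 1.37 FPKM in TG 1 to TG 3 (limma adjusted p = 0.653). *Adam8*, a leukocyte sheddase, was at 4.92 to 13.3 FPKM in CTR papillomas and 10.995, 11.9 and 33.2 FPKM in TG 1 to TG 3 (limma adjusted p = 0.702). *Adam15* was at 20.3 to 27.8 FPKM over all 7 papillomas.

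Of 18 known inducers of *Mmp* genes, 17 were tested and 0 passed, with a median log2 difference of 0.30. TG 3 held the highest value of 10 of the 17, against 41.1% of all genes. *Il1a*, a cytokine of keratinocytes, was at 3.12 to 8.88 FPKM in CTR papillomas and at 9.53, 16.5 and 44.9 FPKM in TG 1 to TG 3, with no overlap (log2 difference 1.71, limma adjusted p = 0.633, exact permutation p = 0.0286). *Ets1*, a transcription factor, was at 1.36 to 2.91 FPKM in CTR and 3.41, 3.54 and 3.99 FPKM in TG 1 to TG 3, also without overlap, as for 4.93% of all genes (log2 difference 0.86, limma adjusted p = 0.587, exact permutation p = 0.0571). *Runx1* and *Runx2*, of which *Runx2* drives *Mmp13* in bone, had log2 differences of -0.36 and -0.27 (limma adjusted p = 0.923 and 0.953). The AP-1 genes of this list, named after their values were seen, did not share 1 order. *Fos* was highest in CTR 4, at 18.2 FPKM against 5.18 to 12.3 FPKM in the other papillomas. *Jun* was at 9.96 FPKM in CTR 4, below every papilloma but CTR 2, and *Junb* was at 118 FPKM there, within a range of 70.9 to 143 FPKM. *Fosl1* was highest in CTR 1 at 3.75 FPKM, next in CTR 4 at 3.06 FPKM, and lowest in CTR 2 at 0.960 FPKM. *Fos*, *Tnf* and *Hbegf* were the 3 of 17 inducers highest in CTR 4, against 4.88% of all genes.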

How the data were processed

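PolyA+ RNA of 7 papillomas (4 CTR, 3 TG) was sequenced as stranded single reads of 40 bases. The authors used TopHat 2.0.4, which called Bowtie 0.12.7 and Samtools 0.1.16, for alignment to GRCm38/mm10, allowing 2 mismatches and 5 multihits, and deposited FPKM values per gene from Cufflinks 1.3.0, with an interval and a status, for each papilloma. Reads that match several sites can be shared among near-identical genes. Locus starts were converted to 1-based coordinates. Groups came from the sample labels.

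Entries of the same symbol were summed (240 symbols), and 162 symbols with status FAIL in any file were left out. Depth was inferred by taking an interval as 2 counting errors to either side. Genes that averaged 0.5 FPKM or more were fitted with limma 3.58.1 (R 4.3.3, variance trend) on log2(FPKM + 0.5), a scale that understates changes of low genes, with Benjamini-Hochberg adjustment over all 12299. Exact permutation tests were 2-sided. Other steps used Python 3.11.15 (pandas 2.3.3, numpy 2.4.6 and scipy 1.17.1), and plots matplotlib 3.10.9. The fit was tested on simulated data. P-values weigh the difference between the groups against the spread between these mice.

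The members, 5 gene lists and 8 marker lists were chosen with earlier results of these data known. Named genes were all members, the other *Mmp* and *Timp* genes tested, at most 2 genes per direction of each list by smallest limma p, the 2 genes nearest in pattern to the 4 most variable members, and *Nanog*. 1 gene named by this rule is not reported here. Untested genes of the *Mmp* cluster, *Timp4*, *Reck*, the AP-1 genes, *Tnf* and *Hbegf* lie outside this rule and were named after their values were seen. Alternatives are given in the closing section. The differential test of Cufflinks, which starts from alignments, was not run here. The paper did use Cufflinks for this comparison. Its list of genes higher in TG papillomas includes *Plau* and *Lcn2* and holds no member. The paper also reports higher *Mmp2* mRNA in TG papillomas by qRT-PCR.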

Additional observations from a re-analysis of the deposited data

Results flagged for a closer look

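*Mmp9* in CTR 4 stood apart from the other CTR papillomas. On the log2(FPKM + 0.5) scale the gap between CTR 4 and the next CTR papilloma made 0.84 of the range of the 4 CTR papillomas, above the critical value of Dixon's test at the 95% level. The levels were 29.2 FPKM in CTR 4 and 1.19 to 2.18 FPKM in the other CTR papillomas. Chance gives such a value in about 1 of 20 groups, and 10 members were examined. The value in CTR 4 rested on 1437 implied reads.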

How the results depend on the processing

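Over 14 alternatives and 7 fits that each left out 1 papilloma, 0 of the 10 members passed at an adjusted p under 0.05 in either direction, and the lowest limma adjusted p of any member was 0.228. Leaving out 1 papilloma kept the sign of the log2 difference in 62 of 70 values, and the alternatives in 133 of 140. Without TG 3 the difference was -0.10 for *Mmp2*, -0.10 for *Timp1*, -0.35 for *Timp3*, 0.15 for *Mmp10* and 0.04 for *Mmp13*. Without CTR 4 it was 0.33 for *Mmp10* and 0.51 for *Mmp13*, and without CTR 2 it was 0.22 for *Mmp12*. The range over these 7 fits was -0.10 to 1.17 for *Mmp2*, 0.58 to 1.96 for *Mmp9*, 0.060 to 0.97 for *Mmp3*, 0.11 to 0.99 for *Mmp11*, 0.089 to 0.88 for *Mmp14*, -0.89 to 0.33 for *Mmp10*, -0.91 to 0.22 for *Mmp12*, -0.80 to 0.51 for *Mmp13*, -0.10 to 0.90 for *Timp1* and -0.35 to 0.98 for *Timp3*. With quality weights, which gave TG 3 the lowest weight (0.272), it was -0.059 for *Mmp3*, -0.14 for *Mmp14*, -0.25 for *Timp1* and -0.30 for *Timp3*. In the libraries of lower depth it was -0.11 for *Mmp3*. Without CTR 4 and TG 3 together, an alternative added after the data were seen, it was -0.050 for *Mmp2*, 0.75 for *Mmp10*, 0.83 for *Mmp13* and -0.34 for *Timp3*.

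With the replicate block the difference was 0.33 for *Mmp10* and 0.51 for *Mmp13*, as without CTR 4, which has no partner. Same-numbered papillomas deviated from their group means with correlations of -0.186, 0.0431 and -0.146, so the numbers were not taken to pair the papillomas, and the block called 0 members and 0 genes.

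Over all genes 0 were called in the fit as reported. Quality weights called 49 higher and 36 lower, and 1 gene of the activators and docking partners, *Lcn2*. The libraries of lower depth called 1 gene higher. Leaving out 1 papilloma gave 0 to 9 genes higher and 0 to 8 lower, the most without TG 3, and leaving out CTR 4 and TG 3 together gave 9 and 2. At an unadjusted p the split of 598 higher and 241 lower (71.3% higher) became 515 and 418 (55.2%) with upper-quartile scaling and 403 and 551 (42.2%) with quantile normalization. The causes were not tested. Each low value is limited by counting, with as few as 31 implied reads for *Timp1* and 34 for *Mmp11*.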
